A study of Drosophila melanogaster with 62 samples.

Results

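Control embryos of Drosophila melanogaster at stage 5 were compared with control embryos at stage 2 in the set that the sample titles call batch1. These groups hold 7 of the 62 libraries of the series, 4 of stage 5 and 3 of stage 2, and were chosen by title alone. The series measured RNA in embryos depleted of histone acetyltransferases or deacetylases, and the batch1 controls are given as those of the Enok and HDAC6 knockdowns. Every one of the 7 libraries came from the cross written T180xN174, carried the genotype "control", shared 1 date in its library name and was made from a pool of 20 hand-sorted embryos. Stage 5 replicates 1 and 4 and stage 2 replicates 1 and 2 were named Ctrl-KD, while stage 5 replicates 2 and 3 and stage 2 replicate 3 were named CtrlAc-KD. The labels give neither what separates these names nor what the parent lines of the cross carry nor the age of the embryos within a stage. They call each pool a biological replicate without saying whether pools came from separate crosses, so p-values measure only the spread between these samples, which may be technical. No spike-in is described for total RNA, so each level is relative to the rest of its library, and fewer cells of a type and less RNA per cell cannot be told apart in pooled embryos.

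At stage 2 the nuclei of the embryo divide in a shared cytoplasm, almost without transcription, and proteins are made from RNA that the mother loaded into the egg. By stage 5, the cellular blastoderm, membranes enclose the nuclei at the surface, the embryo's own genome is widely transcribed and the body axes are read out as stripes and bands of patterning genes. In the same interval maternal RNAs are degraded, by a maternal route that starts at egg activation and involves the RNA-binding protein Smaug, and by routes that need zygotic transcription.

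The libraries held between 3571699 and 23030419 counts, with the deepest (replicate 3) and the shallowest (replicate 4) both at stage 5. At least 1 CPM (a gene's counts scaled to the size of its library, with TMM factors) was reached by 8045 to 8189 genes at stage 5 and by 6593 to 6667 at stage 2. Pearson correlations of log CPM across genes were 0.982 to 0.988 within stage 5, 0.993 to 0.995 within stage 2 and 0.562 to 0.594 between the stages, where genes are not independent replicates. Libraries of a stage also differed among themselves with the length of the gene. Over 5851 coding genes, the deviation of a library from the stage 5 mean had a Spearman correlation with summed exon length of 0.509 in replicate 2, 0.264 in replicate 1, -0.232 in replicate 4 and -0.418 in replicate 3. At stage 2 it was 0.391 in replicate 3, -0.146 in replicate 2 and -0.252 in replicate 1 over 5833 genes. The corresponding correlation of the stage change itself was 0.00803 over 5883 genes. The zygotic genes uif and jbug, for example, were highest in replicate 2 and lowest in replicate 3, and the part of length in any single value was not tested.

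Of 7872 genes tested, 6863 (87.2%) passed at an adjusted p under 0.05 by edgeR's quasi-likelihood test with Benjamini-Hochberg adjustment, of which 3850 (48.9% of those tested) rose and 3013 (38.3%) fell. A change of at least 2-fold was seen in 2350 genes that rose and 2039 that fell, and the levels of the groups did not overlap in 6724 genes (85.4%). The median log2 fold change over all genes tested was 0.27. Counts of list members below are to be read against these shares, except for members under 1 CPM at stage 2. Those passed the filter on low counts through stage 5, so that a rise was the outcome open to them. Among genes tested they made up 12 of 14 gap genes, 13 of 14 neuroectoderm genes and all 6 homeotic genes. All 9 tested in the segment polarity list and all 9 in the mesectoderm and Notch target list were such members as well. So were 10 of the 11 tested on the pair-rule list, 14 of 18 on the first zygotic list and 14 of 19 on the dorsal list. The mesoderm list held 11 such members of 18, the signalling list 11 of 21 and the neuroblast list 7 of 9. The list of differentiated markers held 4 of 5 and the cellularization list 5 of 15.

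**Figure D1:**
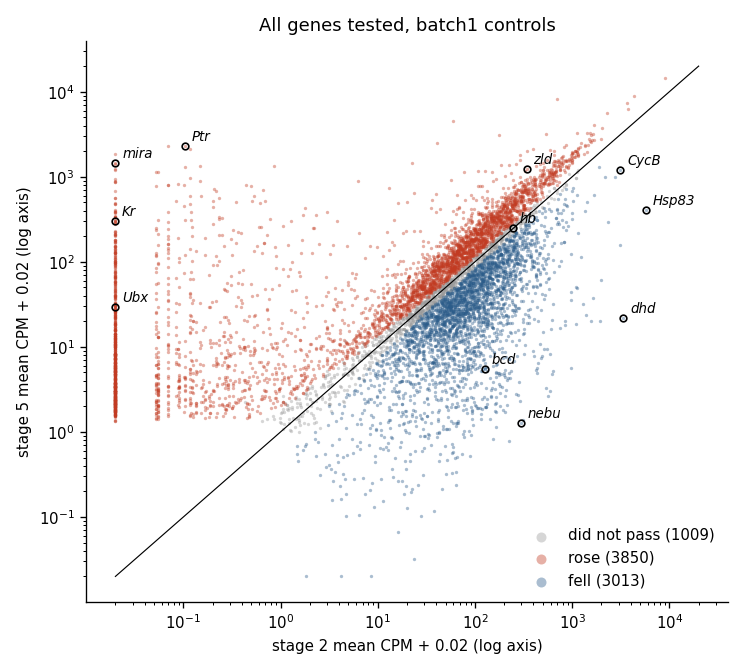
Mean CPM of every tested gene at stage 2 (horizontal, log axis) and stage 5 (vertical, log axis) in batch1 controls, with 0.02 added so that genes at 0 can be drawn. Points are coloured by the edgeR call, with 3850 genes that rose, 3013 that fell and 1009 that did not pass, and the column of points at the left edge holds the genes with 0 counts at stage 2.

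RNAs that were absent or nearly absent at stage 2 and present at stage 5 formed a group of their own. Among genes under 1 CPM at stage 2, 1274 rose, of which 478 reached 10 CPM and 161 reached 100 CPM at stage 5. No count at all was seen in any stage 2 library for 665 tested genes, of which 70 reached 100 CPM. Such genes passed the filter on low counts only through their stage 5 libraries, so that a rise was the outcome open to them, and their folds are lower bounds against a floor of 3 counts over the stage 2 group (0.113 CPM). The 1042 protein-coding genes of the 1274 had a median summed exon length of 2379 bases, 16.1% had a single exon and 12.6% lay on the X chromosome. Over the 7405 protein-coding genes tested these values were 2203 bases, 9.07% and 17.2%. The 784 genes that were under 1 CPM at stage 2 and rose by at least 3 log2 units in the other controls of the series, here called the main controls and sharing no library with batch1, took 0.0121%, 0.00896% and 0.00854% of counts at stage 2 and 7.17%, 7.33%, 6.79% and 7.25% at stage 5.

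The most abundant of the RNAs under 1 CPM at stage 2 was Ptr (chromosome 2R from 6181748 to 6196320 of dm6, minus strand), a gene related to the Hedgehog receptor patched. It was listed at 0.147, 0 and 0.105 CPM at stage 2 and at 2362, 2574, 2101 and 2198 CPM at stage 5. Every stage 5 library held it at a high level and no stage 2 library held more than a trace. The neuroblast gene mira (3R from 19931799 to 19935120, minus strand), whose protein carries fate determinants to one daughter of a dividing neural stem cell, had 0 counts in all 3 stage 2 libraries and 1471, 1428, 1447 and 1531 CPM at stage 5, at least 13047-fold higher. Its stage 5 libraries lay close together, with an SD of 44.6 CPM. The Hedgehog pathway transcription factor ci was at 0.147, 0 and 0.105 CPM and then at 1402, 1303, 1253 and 1275 CPM. The other RNAs among the 10 highest by mean stage 5 level were the noncoding RNAs lncRNA:CR43887 (2289 CPM) and lncRNA:roX1 (2127 CPM), and CG10035 (1845 CPM), CG13427 (1400 CPM), bard (1354 CPM), link (1333 CPM) and uif (1225 CPM). Of the protein-coding genes with a name of their own, the 12 with the largest fitted rises, all from 0 counts at stage 2, were mira, uif, Mdr49, Dtg, dan, sca, sog, Z600, Sr-CII, jbug, trn and Ama, with bounds between 13047-fold for mira and 3590-fold for Ama.

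**Figure D2:**
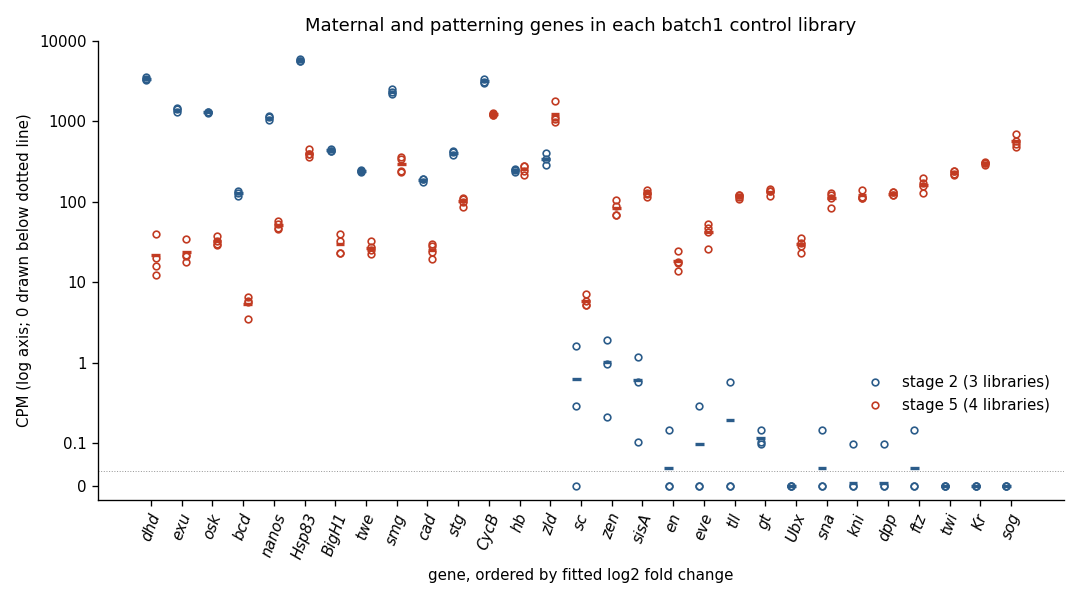
CPM of 29 maternal and patterning genes in each of the 3 stage 2 (blue) and 4 stage 5 (red) batch1 control libraries on a log axis, with 0 drawn below the dotted line and short bars for group means. Genes are ordered by fitted log2 fold change, from dhd (3372 to 21.9 CPM) at the left to sog (0 to 565 CPM) at the right, and the groups overlap for hb alone.

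Genes of the segmentation cascade were present at stage 5 in every tier. Gap genes, which divide the embryo into broad regions, rose in 12 of 14 tested, the exceptions being cnc, which fell, and hb. Kr (2R from 25226611 to 25231394, plus strand), a gap repressor of the central embryo, had 0 counts at stage 2 and 313, 305, 302 and 288 CPM at stage 5, at least 2680-fold higher. Its stage 5 libraries lay close together, with an SD of 10.2 CPM. Mean stage 5 levels were 134 CPM for gt, 120 CPM for kni, 117 CPM for tll and 172 CPM for oc. The median log2 fold change of the list was 9.58 with genes at 0 put at their bound and 11.42 as fitted. hb is both maternal and zygotic, and stood at 257, 232 and 251 CPM at stage 2 and at 238, 279, 280 and 213 CPM at stage 5. The groups overlapped, and the change of 0.04 ± 0.11 log2 units (SE) did not pass (edgeR, adjusted p = 0.73).

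Pair-rule genes, expressed in stripes, rose in 10 of 11 tested, the exception being ftz-f1, a partner of Ftz supplied by the mother, which fell by 1.61 ± 0.19 log2 units from 141 to 44.6 CPM. Stage 5 means were 523 CPM for opa, 341 CPM for prd, 218 CPM for hry, 208 CPM for run, 186 CPM for odd, 162 CPM for ftz and 41.8 CPM for eve. For eve the stage 5 libraries spread from 26.1 to 52.9 CPM, against 0.293, 0 and 0 CPM at stage 2, without overlap. Of 10 segment polarity genes 9 were tested and rose. Among them ptc (596 CPM), nkd (597 CPM) and wg (107 CPM) were well above en, which stood at 17.9, 17.3, 13.6 and 24.3 CPM after 0.147, 0 and 0 CPM. Homeotic genes, which give segments their identity, rose in all 6 tested of 8 listed, each from 0 counts in every stage 2 library. Antp averaged 139 CPM, Dfd 50.0 CPM, Ubx 29.5 CPM, abd-A 25.9 CPM, Abd-B 13.02 CPM and Scr 8.18 CPM at stage 5, while lab and pb did not pass the filter on low counts. Counts of Antp are uncertain because 0.501 of its exon length is shared with another gene.

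Genes of the dorsoventral axis were equally in place. In the mesoderm and gastrulation list 14 of 18 rose, Mef2, fog and Mes2 fell, and zfh1 (42.0 CPM at stage 2 and 39.6 CPM at stage 5) did not pass. The mesoderm determinant twi had 0 counts at stage 2 and 243, 243, 219 and 215 CPM at stage 5, at least 2046-fold higher, and sna reached a mean of 111 CPM. The fall of fog, a ligand that folds the mesoderm, was 0.29 ± 0.10 log2 units (edgeR, adjusted p = 0.019) and was lost with RLE scaling (adjusted p = 0.057) and under 7 other alternatives (up to 0.25). All 14 neuroectoderm genes rose, among them Egfr (711 CPM at stage 5), SoxN (382 CPM), brk (184 CPM) and rho (167 CPM). sog, an inhibitor of Dpp, was at 0 at stage 2 and at 560, 700, 484 and 515 CPM at stage 5, at least 5015-fold higher. On the dorsal side 19 of 20 genes were tested and all rose, with stage 5 means of 352 CPM for egr, 306 CPM for tld, 126 CPM for dpp and 82.8 CPM for zen. Of 12 mesectoderm and Notch target genes 9 were tested and rose, led by Tom at 678 CPM. Among 21 signalling ligands and receptors tested, 17 rose, and fog, sax, tor and trk fell. The fall of tor, the maternal receptor that patterns both ends of the embryo, was 1.56 ± 0.14 log2 units.

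Genes of the earliest zygotic wave did not all stand high. Of 21 listed, 18 were tested and rose, among them slam (2562, 3626, 4075 and 2209 CPM after 162, 184 and 180 CPM), which guides the membranes that enclose the nuclei, term (514 CPM at stage 5), spo (514 CPM) and sisA (127 CPM), an X-linked counter of sex chromosome dose. By contrast, sc, another such counter, reached 5.17, 5.17, 5.90 and 7.21 CPM after 1.61, 0.291 and 0 CPM, and nullo, which acts during cellularization, was at 1.62 CPM and did not pass the filter. Sry-alpha and sala are listed at 0 in all 7 libraries. The annotation and the way of counting are not known here, so these values do not show that the RNAs were absent. In the cellularization list, which holds slam of the first zygotic list and genes of cell polarity, adhesion and junctions, 14 of 15 tested rose. Stage 5 means were 1792 CPM for crb, 1594 CPM for shg, 1421 CPM for arm and 734 CPM for sdt, which had been at 13.1 CPM at stage 2. The exception was dnk, a deoxyribonucleoside kinase, which fell from 289 to 192 CPM.

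**Figure D3:**
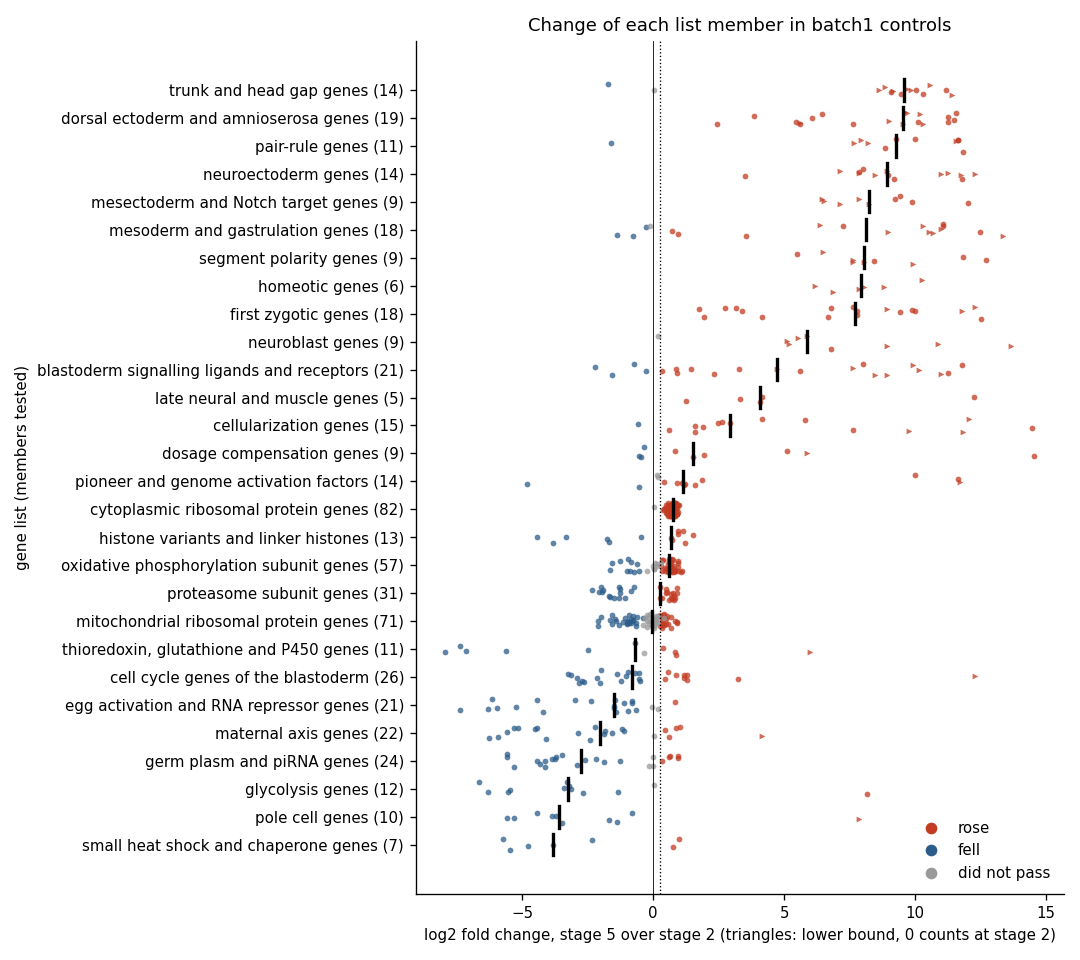
Log2 fold change (stage 5 over stage 2, horizontal) of every tested member of each gene list (vertical, number of members in parentheses), coloured by the edgeR call. Triangles are lower bounds for genes with 0 counts at stage 2, black bars are list medians with such genes at their bound, and the dotted line is the median of all genes tested (0.27); patterning lists lie at the top, with medians up to 9.58, and the chaperone list at the bottom (-3.82).

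Neural genes were detected to different degrees. Besides mira, the neuroblast genes pros (209 CPM), dpn (182 CPM) and l(1)sc (54.6 CPM) rose, as did 8 of 9 tested, while ase (0.0831 CPM) and wor (0 CPM) did not pass the filter. Counts of dpn are uncertain because 0.593 of its exon length is shared with another gene. The neuronal RNA-binding protein gene elav stood at 0, 0.0971 and 0 CPM and then at 250, 269, 214 and 260 CPM. The fitted rise was 12.24 ± 0.27 log2 units, but the stage 2 levels lay under the floor of 0.113 CPM, so its size is uncertain. Of the 12 listed markers of differentiated neurons, glia and muscle 5 were tested and all 5 rose, elav, the muscle genes sls (16.7 CPM at stage 5), bt (9.74 CPM) and Mlc2 (1.66 CPM), and futsch (5.55 CPM), with a median of 4.06. The other 7 were under 1 CPM at stage 5, with nSyb at 0.882 CPM, Syt1 at 0.209 CPM, repo at 0.197 CPM, Mhc at 0.132 CPM and Act57B at 0.0117 CPM. Markers of other tissues were looked at as well. The 16 yolk and eggshell genes, made by the mother's ovary and fat body, summed to 1.80 to 3.88 CPM at stage 5 and 0.485 to 0.736 CPM at stage 2. The 9 testis genes summed to 10.2 to 17.1 CPM at stage 5 and 1.26 to 2.34 CPM at stage 2, most of which was bol, the only testis gene tested, which rose by 2.97 ± 0.33 log2 units from 1.55 to 12.01 CPM. The other 8 testis genes were under 1 CPM at stage 5. The part of such cells in other results was not tested.

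Dosage compensation, which raises transcription of the single male X through a complex of proteins and roX RNAs, was represented by 9 genes, of which 6 rose and msl-1, msl-3 and Clamp fell. The noncoding RNA roX1 (X from 3857230 to 3862697) was at 0.293, 0 and 0 CPM at stage 2 and at 2213, 2085, 2219 and 1992 CPM at stage 5, and roX2 reached 6.64 CPM from 0. msl-2, the limiting protein subunit of the male complex, rose from 6.74, 6.21 and 6.199 CPM to 228, 245, 215 and 190 CPM, by 5.11 ± 0.13 log2 units. Of the other subunits, msl-1 fell from 424 to 336 CPM and msl-3 from 114 to 84.0 CPM, while mof rose from 173 to 309 CPM. Sxl, the sex switch, rose from 194 to 742 CPM. The labels give no sex for the pooled embryos.

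On the maternal side, 5975 genes had at least 10 CPM at stage 2. Of these, 2905 (48.6%) fell, 2267 (37.9%) rose and 803 (13.4%) did not pass. A fall of at least 2-fold was seen in 1953 (32.7%), of at least 4-fold in 1011 (16.9%) and of at least 16-fold in 314 (5.26%), and 71 (1.19%) fell to under 1 CPM. The X chromosome held 22.6% of the 327 protein-coding genes that fell at least 16-fold and 17.2% of all protein-coding genes tested, given as a description. The 1961 genes that fell by at least 1 log2 unit in the main controls took 28.98%, 29.8% and 29.5% of counts at stage 2 and 5.82%, 5.54%, 5.36% and 6.10% at stage 5 of batch1. Of the 1957 of them that were tested, 1879 fell here and 1 rose, with a median log2 fold change of -1.96.

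**Figure D4:**
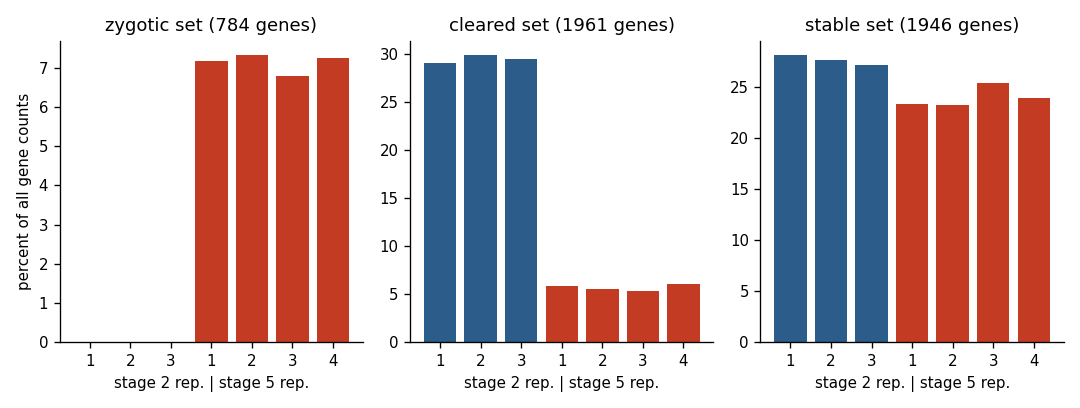
Percent of all gene counts taken in each batch1 control library by genes defined in the main controls, with stage 2 libraries in blue and stage 5 libraries in red and a separate vertical axis per panel, each starting at 0. The zygotic set rises from at most 0.0121% to between 6.79% and 7.33%, the cleared set falls from at least 28.98% to at most 6.10%, and the stable set lies between 27.3% and 28.2% at stage 2 and between 23.3% and 25.5% at stage 5.

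The gene bcd (3R from 6755842 to 6759466, minus strand), whose maternal RNA sits at the anterior pole and sets the head to tail axis, stood at 135, 119 and 129 CPM at stage 2 and at 3.51, 6.50, 5.90 and 5.71 CPM at stage 5. All stage 5 libraries were far below all stage 2 libraries, at 4.24% of their mean, and the log2 fold change was -4.52 ± 0.15 (edgeR, adjusted p = 1.91e-12). Of 22 maternal axis genes tested, 16 fell, 5 rose and hb did not pass, with a median of -2.04. The posterior determinant nanos fell from 1149, 1118 and 1019 CPM to 47.3, 45.5, 53.1 and 57.7 CPM. exu, which helps to place bcd RNA, fell from 1389 to 23.7 CPM, and dl, the dorsal transcription factor, from 130 to 1.92 CPM. osk fell by 5.29 ± 0.11 log2 units, but 0.785 of its exon length is shared with another gene, so that its counts are uncertain. The 5 that rose were cact (515 to 1051 CPM), stau (206 to 379 CPM), Tl (874 to 1342 CPM), ea (52.5 to 71.0 CPM) and pip (0 to 1.99 CPM).

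The largest falls were those of nebu, Cyp6a19, mdu, yin, dhd, Mctp, GstD1, stet, Got2, Tsp42Ef, aralar1 and Boot, between 8.10 and 6.70 log2 units. dhd (X from 5312171 to 5313125, plus strand), the female germline thioredoxin that helps to remodel sperm chromatin, stood at 3522, 3337 and 3257 CPM at stage 2 and at 12.2, 16.1, 20.0 and 39.3 CPM at stage 5, so that 0.650% of its level was left. For nebu, 286, 312 and 290 CPM became 0.738, 0.443, 1.08 and 2.70 CPM. Stage 5 replicate 4 was the highest of the 4 in 9 of these 12 genes and replicate 2 in the other 3. The groups remained far apart for all 12.

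Most regulators of egg activation and RNA repression fell. Of 21 tested, 18 fell, Not1 rose, and brat and Edc3 did not pass, with a median of -1.48. bru1, a translational repressor of osk, fell from 1602, 1517 and 1526 CPM to 19.9, 16.99, 20.0 and 23.1 CPM, and orb from 484 to 7.71 CPM. smg, which encodes Smaug, fell from 2271, 2179 and 2492 CPM to 243, 354, 342 and 235 CPM, by 2.97 ± 0.14 log2 units. Its partners in repression fell too, me31B by 1.45 log2 units and tral by 1.13 log2 units. cup is listed at 0 in all 7 libraries and was not tested, and as the way of counting is not known here, this does not show that its RNA was absent. In the germ plasm and piRNA list 16 of 24 fell, 5 rose (AGO3, tej, zuc, rhi and vls) and aub, cuff and mael did not pass, with a median of -2.75. vas, the helicase of the germ plasm, fell from 224 to 4.85 CPM and piwi from 324 to 24.2 CPM. The rise of rhi, 0.34 ± 0.14 log2 units (edgeR, adjusted p = 0.041), was lost with scaling to genes stable in the main controls (adjusted p = 0.12) and under 6 other alternatives (up to 0.21). Of 10 pole cell genes tested 9 fell, with pgc, which silences transcription in the pole cells, still at 23.99 CPM. The exception on this list was abd-A, which is counted among the homeotic genes above and is not a marker of pole cells alone, so that its rise says nothing about them.

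Cell cycle genes split in direction, 17 of 26 falling and 9 rising, with a median of -0.81. Those that fell included the Cdc25 phosphatases twe (233, 241 and 249 CPM to 25.5, 22.3, 32.4 and 27.3 CPM) and stg (407 to 101 CPM), the checkpoint kinase grp (469 to 71.6 CPM) and CycB (3136 to 1217 CPM). The mitotic inhibitors trbl, which promotes loss of Cdc25, and Z600 rose. trbl went from 66.8, 75.1 and 54.1 CPM to 633, 610, 663 and 560 CPM, and Z600 from 0 counts to 495, 486, 766 and 501 CPM. The other rises were CycB3, CycE, Cdk1, fzy, polo, aurB and BubR1, between 0.46 and 1.31 log2 units.

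Of 13 genes of histone variants and their chaperones 7 rose and 6 fell. BigH1, the embryonic linker histone, fell from 425, 446 and 426 CPM to 32.1, 23.2, 40.0 and 23.1 CPM, by 3.82 ± 0.16 log2 units. The histone variant genes His3.3A, His3.3B, His2Av and His4r rose by 0.94 to 1.54 log2 units. Hira and yem, which load a histone variant onto paternal chromatin, fell from 128 to 6.399 CPM and from 266 to 26.7 CPM. Of 14 pioneer and genome activation factors 10 rose, Clamp and ttk fell, and Stat92E and Pc did not pass. zld, which encodes the pioneer factor Zelda, stood at 337, 287 and 398 CPM at stage 2 and at 1114, 1788, 968 and 1070 CPM at stage 5, a rise of 1.86 ± 0.19 log2 units. grh was at 0 at stage 2 and averaged 378 CPM at stage 5. ttk, a maternal repressor of segmentation genes, fell from 209 to 7.67 CPM.

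Metabolic and housekeeping families differed in how far their members shared a direction. Glycolysis genes fell in 10 of 12 tested, with a median of -3.24. Gapdh2 went from 1859, 2003 and 2004 CPM to 16.6, 16.99, 20.9 and 24.9 CPM, Tpi from 435 to 5.68 CPM, PyK from 848 to 18.1 CPM and Eno from 1220 to 114 CPM. The aldolase gene Ald1 (160 CPM at stage 2 and 166 CPM at stage 5) did not pass, and Ldh, lactate dehydrogenase, rose from 0.0350 to 14.8 CPM. Cytoplasmic ribosomal protein genes rose in 81 of 82 tested, by a median of 0.76 log2 units, led by RpL3 (1559 to 3111 CPM). The exception, RpL38, ranged from 258 to 443 CPM at stage 5 and from 316 to 453 CPM at stage 2. Oxidative phosphorylation genes rose in 39, fell in 10 and did not pass in 8 of 57, with a median of 0.61. Mitochondrial ribosomal protein genes had no common direction, with 22 rising, 26 falling and 23 not passing of 71 and a median of -0.06, and 14 rose and 29 fell when scaled to stable genes.

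Proteasome genes divided along the structure of the complex, a split noticed after the values were seen and given without a test. All 13 tested genes of the core particle (Prosalpha and Prosbeta), which cuts proteins, rose, by 0.25 to 0.90 log2 units. Of the 18 genes of the regulatory particle (Rpn and Rpt), which recognises and unfolds them, 15 fell and 3 rose. Prosbeta6 went from 230, 243 and 248 CPM to 440, 416, 484 and 449 CPM, while Rpn8 went from 172, 203 and 179 CPM to 40.98, 31.6, 35.2 and 39.3 CPM. The regulatory genes that rose were Rpt4, Rpn12 and Rpn6, by 0.79, 0.83 and 0.25 log2 units. The direction held with RLE scaling (13 and 15 calls) and with scaling to stable genes (12 rises in the core and 15 falls in the regulatory particle). Chaperone genes of the egg fell, with Hsp83 from 5634, 5882 and 5548 CPM to 394, 364, 454 and 396 CPM, Hsp26 from 1621 to 37.1 CPM and Hsp27 from 405 to 7.85 CPM. Of 7 tested in that list 5 fell, and Hsp23 and Hsc70-4 rose.

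The change between stages was then set against that in the main controls, 3 libraries per stage of the same cross with another date in their names, by testing the difference of the changes in 1 fit of all 13 libraries. Set and date cannot be told apart. All main libraries were named Ctrl-KD, while batch1 also held CtrlAc-KD libraries, and the part of the name in the differences was not tested. Of 8005 genes tested, 2359 (29.5%) differed, 846 (10.6%) with the higher and 1513 (18.9%) with the lower change in batch1 (edgeR, interaction term). That split rested on scaling. With RLE scaling it was 1449 against 1071, and with scaling to stable genes 1644 against 1019. The median difference over all genes moved with it, from -0.00 to 0.21 and 0.25 log2 units. Stable genes were picked for little change in the main controls, 1 side of this comparison, so that scaling is not an independent check. Stage 5 replicate 1 of the main controls stood apart, with smg at 2353 CPM where its fellows had 1232 and 1308 CPM, and without it the split was 1019 against 1151. Levels in this comparison are scaled over all 13 libraries and so differ slightly from those above.

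Many maternal RNAs had the lower stage change in batch1. bcd, near 130 CPM at stage 2 in both sets, was at 3.28, 6.02, 5.46 and 5.33 CPM at stage 5 of batch1 and at 124, 63.7 and 67.0 CPM at stage 5 of the main controls. All batch1 libraries were lower than all main libraries, and the changes differed by -4.17 ± 0.30 log2 units (edgeR, adjusted p = 4.08e-07), or by -3.69 without main replicate 1. twe, at 23.8, 20.7, 30.0 and 25.5 CPM against 242, 208 and 189 CPM at stage 5, differed by -2.93 ± 0.17. For smg, 227, 328, 316 and 219 CPM stood against 2353, 1232 and 1308 CPM, a difference of -2.71 ± 0.29, or -2.27 without main replicate 1. Of the maternal axis list 15 of 22 had the lower change in batch1 and none the higher, and of the egg activation list 14 of 21 had the lower and none the higher. With RLE scaling these were 14 lower with 1 higher, and 13 lower with none higher. Germ plasm and piRNA genes were lower in 15 and higher in 2 of 24, and glycolysis genes lower in 9 and higher in 1 of 12, with Hex-A, hexokinase, at -4.15 ± 0.46 (-3.30 without main replicate 1). With RLE scaling 13 germ plasm and 6 glycolysis genes were lower. For some RNAs that were nearly gone in both sets no difference was called, as for dhd (-0.74 ± 0.35, edgeR, adjusted p = 0.13) and exu (-0.51 ± 0.23, adjusted p = 0.12).

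**Figure D5:**
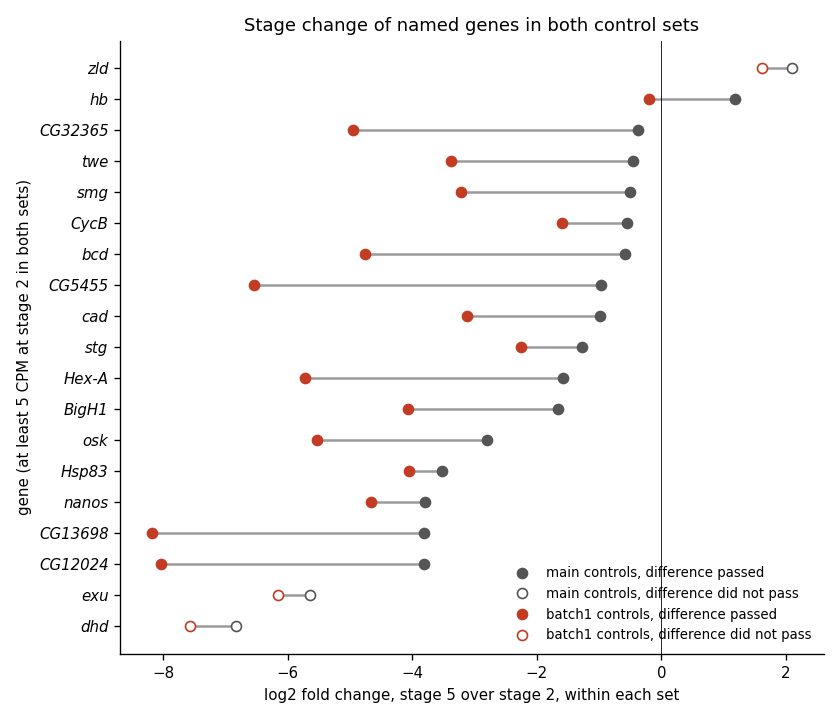
Log2 fold change between the stages in batch1 (red) and main (grey) controls for the named genes with at least 5 CPM at stage 2 in both sets, joined by a line, with filled points where the difference of the changes passed (edgeR interaction). The batch1 point lies to the left of the main point for every gene drawn, by 4.17 log2 units for bcd, and the differences of dhd, exu and zld did not pass. Genes picked for the largest lower changes in batch1 are drawn, except nullo and sc. All genes picked for the largest higher changes were under 5 CPM at stage 2 and are left out. The shared direction therefore does not describe all genes tested. Of those, 846 had the higher and 1513 the lower change in batch1, or 1449 and 1071 with RLE scaling.

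Zygotic genes differed in both directions. Of 19 first zygotic genes tested, 4 had the lower change in batch1 (nullo, sc, slam and Elba2) and Sxl the higher, beside 18.9% lower over all genes, and with RLE scaling 3 were lower. nullo stood at 0.345, 1.92, 2.64 and 1.12 CPM against 61.0, 46.2 and 60.4 CPM in the main controls at stage 5, a difference of -5.76 ± 1.54 in the stage change (edgeR, adjusted p = 0.0094). sc (-4.31 ± 1.13), zen (-2.12 ± 0.70) and hb (-1.39 ± 0.17) also had the lower change. For hb, stage 5 held 568, 553 and 449 CPM in the main controls and 222, 258, 259 and 199 CPM in batch1, after 209, 222 and 258 CPM and 279, 254 and 275 CPM at stage 2. Without batch1 stage 2 replicate 1 the calls of nullo (adjusted p = 0.078, edgeR), sc (0.26) and zen (0.22) were lost, and all stage 2 levels of these genes were close to 0. The call of nullo was lost without batch1 stage 2 replicate 2 as well, and that of zen under 5 other alternatives. The higher changes in batch1 included those of gbb, a BMP ligand (4.86 ± 1.68, edgeR, adjusted p = 0.042), Pvf3, CG13894 and Gp150. Stage 2 means of these genes were at most 0.488 CPM in both sets. The sizes of their differences therefore rest on few counts. At stage 5, gbb averaged 119 CPM in batch1 and 51.7 CPM in the main controls, and Gp150 1056 and 548 CPM. Pvf3 averaged 27.3 and 10.6 CPM, and CG13894 50.4 and 35.9 CPM. The trunk gene tsh differed by 2.41 ± 0.52, with 197, 209, 121 and 240 CPM at stage 5 against 45.5, 51.5 and 54.7 CPM. The call of gbb was lost when any of 8 single libraries was left out (edgeR, adjusted p from 0.050 to 0.12), that of Gp150 without batch1 stage 2 replicate 2 (0.056) and that of Pvf3 without main stage 2 replicate 3 (0.098). CG13894 lost its call under 5 alternatives, the replicate block among them (0.11). For 547 tested genes with 0 counts in all 6 stage 2 libraries the stage change has no measured base, no difference was called, and the stage 5 levels can only be set side by side. Ubx stood at 32.9, 28.6, 21.5 and 26.7 CPM in batch1 and at 8.25, 6.32 and 7.35 CPM in the main controls. sog stood at 523, 648, 448 and 482 CPM against 336, 307 and 281 CPM, and Kr at means of 281 and 323 CPM. twi stood at means of 214 and 164 CPM. Kr was the lower in batch1, and Ubx, sog and twi the higher. These genes come from the panel, and how many of the 547 had ranges apart was not counted.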

How the data were processed

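Total RNA was sequenced from pooled embryos. The authors deposited whole-number counts per gene in 1 table. Base calls were made with bcl2fastq 2.20.0.422 and the genome build was dm6, per the submitters' processing notes, while the strand setting, annotation, counting program and aligner were not given in the sources used here. Reads of overlapping genes may therefore have been split, and genes that share more than 0.5 of their exon length with another gene are called uncertain. Of 17753 genes in the table, 17626 (99.3%) were matched by identifier to Ensembl release 115, which gave symbols and positions.

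Genes were kept by filterByExpr of edgeR 4.0.16 (at least 10 counts in enough libraries and 15 in all), scaled by TMM and tested with the quasi-likelihood F test and Benjamini-Hochberg adjustment at 0.05 in R 4.3.3 with limma 3.58.1. The stage comparison used the 7 batch1 controls, and the difference between sets was the interaction term in a fit of 13 libraries. Standard errors are the size of the log2 fold change over the root of F. Genes called zygotic were under 1 CPM at stage 2 and rose by at least 3 log2 units in the main controls, cleared genes fell by at least 1 log2 unit, and stable genes moved by under 0.5 log2 units at 5 CPM or more. Alternatives were RLE scaling, scaling to stable genes, no filter, DESeq2 1.42.0, a replicate block, the name kind as a covariate, a joint fit with all batch1 groups and each library left out. The fits were also run on simulated data with far fewer changed genes and without the largest changes seen here. That run therefore does not show their error rate under a shift of this size.

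The genes and lists were chosen with earlier results of these data known. Genes named were a panel of maternal and patterning genes, the 12 largest rises and falls among named coding genes with at least 20 CPM, the 10 highest RNAs under 1 CPM at stage 2, the list members with the lowest p or against the majority, and the 8 largest differences between sets each way with at least 20 CPM; other members were named after their values were seen. The depth of each library sets its precision: a floor of 3 counts corresponds to 0.113 CPM over the stage 2 group, and bounds cover counting error only. Reads carry no molecular identifiers as far as the labels say. No sequences were used here.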

Additional observations from a re-analysis of the deposited data

Results flagged for a closer look

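Among 59 genes examined over the 4 stage 5 libraries, 6 had a library whose gap to the nearest other was above the critical value of Dixon's test, which chance gives in about 1 of 20 such groups. Dtg was high in replicate 4 (1004 CPM), Z600 was high in replicate 3 (766 CPM) and dan was low in replicate 3 (701 CPM). Of the RNAs nearly cleared by stage 5, Cyp6a19 was high in replicate 4 (6.91 CPM), and mdu (1.03 CPM) and Got2 (4.58 CPM) were high in replicate 2.

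The stage change differed between batch1 and main controls in 2359 genes, of which 846 were higher and 1513 lower in batch1 (edgeR, interaction term). Maternal genes with the lower change were bcd (-4.17 log2 units), Hex-A (-4.15), twe (-2.93), osk (-2.73), smg (-2.71), BigH1 (-2.40), cad (-2.12), CycB (-1.05), stg (-0.99), nanos (-0.87) and Hsp83 (-0.54). Among early zygotic genes the difference was -5.76 for nullo, -4.31 for sc, -2.12 for zen and -1.39 for hb. Genes without a name of their own were CG5455 (-5.57), CG32365 (-4.58), CG13698 (-4.36) and CG12024 (-4.22). Without stage 5 replicate 1 of the main controls the difference of stg was -0.56, that of Hsp83 -0.33 and that of CG13698 -2.91. All 3 calls held, that of Hsp83 at an adjusted p of 0.049 (edgeR). Under other alternatives calls were lost 6 times for zen, 4 for Hsp83, 2 for nullo and 1 for sc. On the other side stood gbb (4.86), Pvf3 (3.42), CG13894 (3.39), Gp150 (3.26), FBgn0003328 (2.88), CG32280 (2.69), CG32982 (2.64) and tsh (2.41). Stage 2 means of these genes on the higher side were at most 1.06 CPM in both sets, so these sizes rest on few counts. Calls were lost under 9 alternatives for FBgn0003328, 8 for gbb, 5 for CG13894 and 4 each for CG32280 and CG32982. Set and library date cannot be told apart in these differences, and the part of the library name was not tested.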

How the results depend on the processing

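No gene that passed in both the main fit and an alternative changed direction between them. The median of mitochondrial ribosomal protein genes, -0.06, lay between -0.15 and 0.05 under the alternatives. The count of genes that changed between stages was 6863, against 6873 with RLE scaling, 6846 with scaling to stable genes, 8461 without a filter, 6855 with DESeq2, 6829 with the name kind as a covariate, 7194 with all batch1 groups, and 6627 to 6938 with 1 library left out. In Ctrl-KD libraries alone it was 6454, and in CtrlAc-KD libraries alone, 2 against 1 and chosen after seeing the data, with the lone library assumed to vary like the others, it was 6292. The median log2 fold change of all genes was 0.27, with 0.32 under RLE scaling and 0.19 under scaling to stable genes. Deviations of libraries with the same title number correlated at -0.069, -0.029 and -0.179, and values from groups this small cannot settle whether the samples were paired. The replicate block followed title numbers, which at number 2 join a CtrlAc-KD library of stage 5 with a Ctrl-KD library of stage 2. With the replicate block 6689 genes changed between stages, and 1587 differed between sets.

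The count of genes that differed between sets (2359) was 1993 to 2500 with 1 library left out, and the count higher in batch1 moved from 846 to 1449 with RLE scaling, 1644 with scaling to stable genes, 1633 with DESeq2 and 535 with the replicate block, and lay between 666 and 1019 with 1 library left out. The cause was not tested. Stricter limits changed the shares by construction. With zygotic genes limited to a rise of 4 log2 units their mean share at stage 2 went from 0.00985% to 0.00720%, and with cleared genes limited to a fall of 2 log2 units their share went from 29.4% to 17.4% at stage 2 and from 5.70% to 2.00% at stage 5. The shallowest library had 3571699 counts, which limits genes near 1 CPM. Of the differences named between sets, calls were lost for FBgn0003328 under 9 alternatives, gbb 8, zen 6, CG13894 5, CG32280, CG32982 and Hsp83 4 each, nullo 2, and Gp150, Pvf3 and sc 1 each, with adjusted p up to 0.26 (edgeR or DESeq2).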

Other observations

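Noncoding RNA genes were split by their level at stage 2, since genes under 1 CPM there passed the filter through stage 5, so that a rise was the outcome open to them. Of 255 genes annotated as noncoding RNA that were tested, 167 were under 1 CPM at stage 2. Of the other 88, 34 rose, 24 fell and 30 did not pass, beside 2479 rises and 2956 falls among 6359 protein-coding genes at the same limit. Of 51 snoRNA genes at 1 CPM or more at stage 2, 27 rose, 1 fell and 23 did not pass. Some of these genes lie within or overlap others, and the strand setting of the counting is not known here, so that their reads and those of their hosts cannot be told apart.

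Oxidative phosphorylation genes included large opposite changes, with UQCR-C2 falling by 1.55 log2 units and ND-42 rising by 1.08 log2 units. Of the 111 replication-dependent histone gene copies 1 passed the filter on low counts, and the number of reads lost to near-identical copies was not tested.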
